A study of Mus musculus with 12 samples.

Results

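Klf6 lies on mouse chromosome 13, and the genes around it tend to be inherited together with any engineered allele of Klf6. The genes described here are the protein-coding genes and pseudogenes that start between positions 3000000 and 16000000 of chromosome 13 (GRCm38, GENCODE vM21) and have a row in both deposited tables, without Klf6 and 2 other genes of the window. This gave 55 genes of the 19868 present in both tables, of which 38 are protein-coding and 17 are pseudogenes, and 17 start proximal and 38 distal to Klf6. A further 18 protein-coding genes and pseudogenes of the window had a row in 1 table only and 66 in neither.

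Total RNA was measured in bone marrow-derived macrophages, which are grown in culture from marrow progenitors, in 12 libraries that form 4 groups of 3. The groups were untreated Klf6fl/fl:Lyz2cre cells, untreated Lyz2cre cells, TNF-treated Klf6fl/fl:Lyz2cre cells and TNF-treated Lyz2cre cells. TNF, a cytokine released in inflammation, was present at 10 ng/ml during 6 h. Klf6fl/fl:Lyz2cre mice carry floxed copies of Klf6, a zinc-finger transcription factor gene, and all 4 groups carry Cre recombinase under the control of Lyz2, the lysozyme gene of myeloid cells. The labels state no strain, sex or age and do not say whether the libraries of a group come from separate mice, so each p-value here reflects spread among libraries that may be technical.

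A floxed allele is usually made in embryonic stem cells of one mouse strain and then crossed into another, and the DNA next to the allele travels with it until recombination separates them. Genes near the allele can therefore differ between a floxed line and its control line by linked sequence as well as by what the deletion does. The window also holds unrelated housekeeping genes, a cluster of aldo-keto reductase genes, and pairs of duplicated genes whose reads are hard to tell apart. The files hold no sequence variants, and the strain of the DNA around Klf6 was not tested.

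Klf6 itself had 7004, 7405 and 6894 normalized counts (reads divided by the library's size factor) in untreated Klf6fl/fl:Lyz2cre libraries, against 10055, 9984 and 10315 in untreated Lyz2cre libraries. With TNF the values were 4211, 4133 and 4139.9 in Klf6fl/fl:Lyz2cre libraries, against 7622, 7155 and 7564 in Lyz2cre libraries. No library of one genotype reached the range of the other in either condition, and the log2 difference was -0.51 without TNF and -0.84 with TNF (limma, adjusted p = 7.1e-10 and 4.3e-11). The values are per gene, so exons outside the floxed part are counted too. Libraries held 16.9 to 23.4 M reads. All 10 macrophage markers on the list were measured, at 1.19 to 1.22% of normalized counts in untreated Klf6fl/fl:Lyz2cre libraries against 1.83% in each untreated Lyz2cre library, and with TNF at 1.41% in each Klf6fl/fl:Lyz2cre library against 1.51 to 1.53% in Lyz2cre libraries. Of the 10, 1 passed the limma test as higher in Klf6fl/fl:Lyz2cre cells and 9 as lower without TNF. With TNF 3 passed as higher and 7 as lower. In bulk samples fewer cells of a type and less RNA per cell cannot be told apart.

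Of the 55 genes, 31 had at least 1 CPM, the counts scaled per M counts of a library, in at least 3 libraries of both tables and were tested in both conditions. Gli3 was tested only without TNF and Gng4 only with TNF, so each condition had 32 genes under test, and 22 genes were tested in neither. Without TNF 22 of 32 passed the test (limma, adjusted p below 0.05), beside 56.9% of all genes tested. Of these, 10 were higher and 12 lower in Klf6fl/fl:Lyz2cre cells, beside 27.6% higher and 29.3% lower over all genes tested. With TNF 27 of 32 passed, beside 57.3% of all genes tested, with 5 higher and 22 lower, beside 26.5% and 30.8%. Of the 5 higher with TNF, Edaradd, Gm18562 and Nid1 reached 1 CPM only in Klf6fl/fl:Lyz2cre libraries, as did Gm18562 without TNF. The counts of higher genes are therefore a description only. The median log2 difference of the tested genes was -0.05 without TNF and -0.49 with TNF, while over all genes tested it was -0.01 in both conditions. In 15 of the 31 genes tested in both conditions the difference passed in the same direction in both conditions, beside 23.7% of all genes tested in both, and these were 4 higher and 11 lower, beside 10.3% and 13.4%.

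The split between higher and lower depended on the scaling. When each library was scaled to its total read count, the median log2 difference of genes on other chromosomes became 0.13 without TNF and 0.32 with TNF. The genes around Klf6 then gave 13 higher and 9 lower without TNF, 8 higher and 14 lower with TNF, and 6 higher and 5 lower in the same direction in both. Over all genes tested that scaling called 59.2% without TNF, 74.7% with TNF and 31.7% in the same direction in both, so with TNF the 22 of 32 around Klf6, or 68.8%, were below the share over all genes. Measured against those other chromosomes, their median was -0.05 without TNF and -0.48 with TNF under that scaling, and -0.05 and -0.48 under the deposited one.

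Only 1 gene within 1 Mb of Klf6 was tested, so the genes next to Klf6 were barely covered. The nearest gene tested was Pitrm1, which encodes a mitochondrial peptidase and starts 0.687 Mb distal to the start of Klf6. Pitrm1 had 1091, 1131 and 1129 normalized counts in untreated Klf6fl/fl:Lyz2cre libraries, against 1050.4, 1119.8 and 1066 in untreated Lyz2cre libraries. With TNF it had 787, 816 and 779.6 in Klf6fl/fl:Lyz2cre libraries, against 860.4, 804 and 795 in Lyz2cre libraries. The genotypes overlapped in both conditions, with log2 differences of 0.05 (SE 0.0504) and -0.04 (SE 0.0637), and neither passed the test (limma, adjusted p = 0.42 and 0.57). Scaled to library totals it was higher in both conditions, by 0.18 and 0.28 on the log2 scale, against shifts of 0.13 and 0.32 of the other chromosomes. Pitrm1 shares 748 identical annotated bases with a neighbour, so its level is uncertain. Between 1 and 3 Mb from Klf6, 7 of 9 genes passed without TNF and 7 of 9 with TNF, beside 56.9% and 57.3% of all genes tested, and 62.5% and 67.4% on the rest of chromosome 13. Between 3 and 6 Mb these counts were 2 of 4 and 4 of 4, and beyond 6 Mb they were 13 of 18 and 16 of 18.

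**Figure D1:**
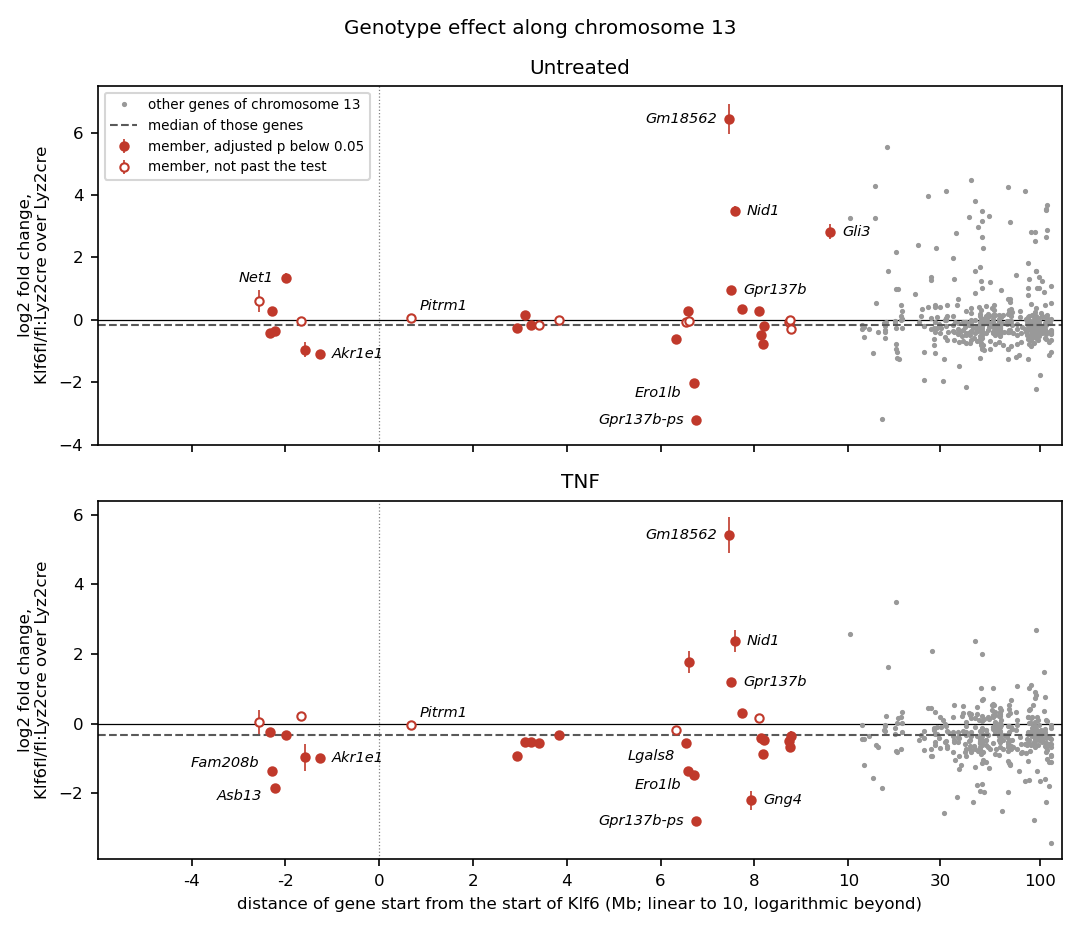
Log2 difference between Klf6fl/fl:Lyz2cre and Lyz2cre cells (y axis) against the distance of each gene's start from the start of Klf6 (x axis, Mb, linear to 10 and logarithmic beyond), untreated above and TNF below. Red symbols are the genes around Klf6 ("member") with SE bars, filled where adjusted p was below 0.05, grey dots are other genes of chromosome 13 and the dashed line is the median of those, at -0.17 without TNF and -0.34 with TNF; Pitrm1 lies next to 0, and Ero1lb, Gpr137b-ps, Gm18562 and Nid1 lie 6.70 to 7.58 Mb distal to Klf6.

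Differences of at least 2-fold that passed the test were found in 7 of 32 genes without TNF and in 10 of 32 with TNF, beside 13.8% and 15.1% of all genes tested. Differences of at least 2-fold in the same direction in both conditions were found in 4 of the 31 genes, beside 4.00% of all genes tested in both. Of the 4, Gm18562 in both conditions and Nid1 with TNF passed the filter on low values only through the Klf6fl/fl:Lyz2cre libraries. Edaradd, among the 10 with TNF, did so too, and these counts are given as a description only. The 4 genes, Ero1lb, Gpr137b-ps, Gm18562 and Nid1, start within 0.872 Mb of each other, between positions 12565874 and 13437551. The same stretch holds 3 other genes of the set. One of them, Gpr137b, passed the test in both conditions, and Prl2c2 and Gm2423 were too low to be tested. The stretch was singled out after its values were seen.

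Within it lie 2 pairs of near-identical genes. Ero1lb on the plus strand (chromosome 13, 12565874 to 12611396) and Gpr137b-ps on the minus strand (12615057 to 12650388) stand side by side. Gm18562 on the plus strand (13323364 to 13350427) and Gpr137b on the minus strand (13357620 to 13394014) repeat that order further distal. Gpr137b encodes a multipass membrane protein of lysosomes, and Gpr137b-ps is annotated as its pseudogene. Ero1lb encodes an oxidoreductase of the endoplasmic reticulum that drives disulfide bond formation, and Gm18562 is a predicted unprocessed pseudogene. Gpr137b and Gpr137b-ps transcripts had 5 mismatches over 1158 aligned bases, an identity of 99.6% with gaps not counted, and the 5 mismatches lie in the 1155 coding bases of Gpr137b. Ero1lb and Gm18562 transcripts had 6 mismatches over 909 aligned bases, an identity of 99.3% with 12 bases of gaps not counted. With gaps counted and over all annotated transcripts, the longest alignments were 97.4% identical over 1966 bases for the Gpr137b pair, with 19 mismatches, and 98.0% over 921 bases for the Ero1lb pair.

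A stretch of 120 bases of each gene shows how little separates a read of one copy from a read of the other. Both members of a pair are given 5′ to 3′ on their own strand, in lower case from the GENCODE vM21 transcripts (GRCm38), with the bases that differ within the pair in capitals. The first pair is from exon 5 of both genes, and the second is from exon 15 of Ero1lb and exon 9 of Gm18562.
Gpr137b, chr13:13363453-13363572, minus strand: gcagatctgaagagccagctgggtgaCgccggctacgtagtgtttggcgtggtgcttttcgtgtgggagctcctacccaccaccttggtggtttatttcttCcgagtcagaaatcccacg
Gpr137b-ps, chr13:12619775-12619894, minus strand: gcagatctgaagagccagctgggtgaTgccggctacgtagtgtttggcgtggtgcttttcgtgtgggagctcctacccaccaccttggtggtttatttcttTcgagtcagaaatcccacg
Ero1lb, chr13:12604328-12604447, plus strand: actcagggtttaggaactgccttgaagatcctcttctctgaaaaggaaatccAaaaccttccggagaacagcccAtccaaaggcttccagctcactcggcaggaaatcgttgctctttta
Gm18562, chr13:13348014-13348133, plus strand: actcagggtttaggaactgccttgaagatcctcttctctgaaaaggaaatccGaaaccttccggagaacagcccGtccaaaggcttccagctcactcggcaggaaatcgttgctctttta

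Reads assigned to Gpr137b-ps were far fewer in Klf6fl/fl:Lyz2cre cells. Gpr137b-ps had 358, 421 and 467 normalized counts in untreated Klf6fl/fl:Lyz2cre libraries, against 3817, 3853 and 3709 in untreated Lyz2cre libraries. TNF-treated Klf6fl/fl:Lyz2cre libraries had 332, 434 and 485, against 2614, 3061 and 2916 in TNF-treated Lyz2cre libraries. Every Klf6fl/fl:Lyz2cre library lay far below every Lyz2cre library, and the difference was 9.17-fold lower without TNF (log2 -3.20, SE 0.0710; limma, adjusted p = 9.1e-17) and 6.92-fold lower with TNF (log2 -2.79, SE 0.104; limma, adjusted p = 1.1e-12).

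Gpr137b moved the other way. It had 7170.3, 7193 and 6923 normalized counts in untreated Klf6fl/fl:Lyz2cre libraries, against 3772, 3763 and 3545 in untreated Lyz2cre libraries. In the TNF table the values were 5859, 5796 and 5682 in Klf6fl/fl:Lyz2cre libraries, against 2386, 2743 and 2458 in Lyz2cre libraries. The genotypes did not overlap, and Gpr137b was 1.92-fold higher in Klf6fl/fl:Lyz2cre cells without TNF (log2 0.94, SE 0.0373; limma, adjusted p = 2.6e-13) and 2.29-fold higher with TNF (log2 1.19, SE 0.0517; limma, adjusted p = 7.3e-12).

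The sum of the Gpr137b pair differed less than its members did. Without TNF Gpr137b and Gpr137b-ps together had 7510.3 ± 113 normalized counts in Klf6fl/fl:Lyz2cre cells and 7486 ± 201 in Lyz2cre cells (SD, n = 3 each), a ratio of 1.00, and the libraries overlapped (exact permutation test, two-sided, p = 0.9). With TNF the sum was 6196 ± 32.0 in Klf6fl/fl:Lyz2cre cells and 5392 ± 402 in Lyz2cre cells, a ratio of 1.15, with no overlap (exact permutation test, two-sided, p = 0.1, the smallest that 3 against 3 libraries can give). These sums and ratios are for the deposited scaling only, and the sums were not tested with libraries scaled to totals. That scaling raised the log2 differences of both members in both conditions. It moved the median of genes on other chromosomes to 0.13 without TNF and 0.32 with TNF. The ratio of 1.00 is therefore not independent of the scaling. The division of reads within the pair differed in both conditions, and as a share within each library it does not depend on the scaling. Gpr137b-ps took 5.53% ± 0.784 of the pair's reads in untreated Klf6fl/fl:Lyz2cre cells and 50.7% ± 0.423 in untreated Lyz2cre cells. With TNF it took 6.74% ± 1.26 in Klf6fl/fl:Lyz2cre cells and 53.1% ± 1.03 in Lyz2cre cells. These are shares of reads as the authors assigned them, not shares of transcripts, since annotated lengths differ and how reads that match both copies were counted is not stated in the labels.

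Ero1lb had 344, 332 and 335 normalized counts in untreated Klf6fl/fl:Lyz2cre libraries, against 1410.4, 1369 and 1326 in untreated Lyz2cre libraries. Klf6fl/fl:Lyz2cre libraries with TNF had 275, 271 and 259.5, against 713, 816 and 722 in Lyz2cre libraries with TNF. Ero1lb was thus lower in all Klf6fl/fl:Lyz2cre libraries, 4.05-fold without TNF (log2 -2.02, SE 0.0594; limma, adjusted p = 4.0e-15) and 2.79-fold with TNF (log2 -1.48, SE 0.0827; limma, adjusted p = 2.0e-10).

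Nearly all reads of Gm18562 came from Klf6fl/fl:Lyz2cre cells. It had 83.4, 83.7 and 90.9 normalized counts in untreated Klf6fl/fl:Lyz2cre libraries and 0 in all 3 untreated Lyz2cre libraries. This is 296 reads against 0, or at least 76.2-fold higher when the Lyz2cre group is set to a floor of 3 reads over the group. With TNF it had 45.8, 61.8 and 56.4 in Klf6fl/fl:Lyz2cre libraries and 0, 0 and 1.15 in Lyz2cre libraries. The 175 reads against 1 give a ratio of 156 with a 95% counting interval of 27.6 to 6189 (exact binomial). Intervals and floors cover counting error only, since reads without molecular identifiers are not independent molecules. Gm18562 passed the test in both conditions (limma, adjusted p = 1.8e-09 and 1.9e-07), and it entered the test only through the Klf6fl/fl:Lyz2cre libraries.

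Unlike the Gpr137b pair, the Ero1lb pair was also lower as a sum. Ero1lb and Gm18562 together had 423 ± 6.52 normalized counts in untreated Klf6fl/fl:Lyz2cre cells and 1368 ± 42.4 in untreated Lyz2cre cells (SD, n = 3 each), which is 3.23-fold lower. With TNF they had 323 ± 8.63 in Klf6fl/fl:Lyz2cre cells and 751 ± 56.8 in Lyz2cre cells, which is 2.33-fold lower. The libraries did not overlap in either condition (exact permutation test, two-sided, p = 0.1 in each, the smallest that 3 against 3 can give). Gm18562 took 20.3% ± 0.933 of the pair's reads in untreated Klf6fl/fl:Lyz2cre cells and 0% in untreated Lyz2cre cells.

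**Figure D2:**
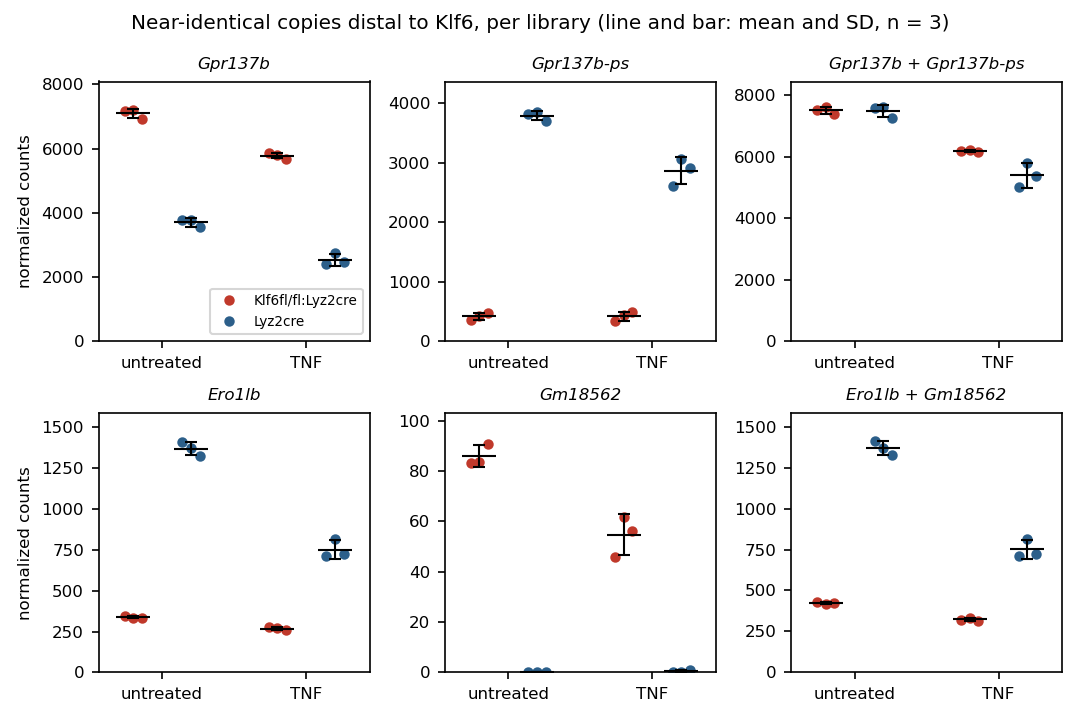
Normalized counts per library of Gpr137b, Gpr137b-ps and their sum (top row) and of Ero1lb, Gm18562 and their sum (bottom row), in untreated and TNF-treated cells, each panel with its own y axis from 0. Points are libraries and lines with bars are means and SD (n = 3); Gpr137b and Gpr137b-ps differ in opposite directions while their untreated sums are 7510.3 and 7486, and the sum of Ero1lb and Gm18562 is 423 in untreated Klf6fl/fl:Lyz2cre cells against 1368 in untreated Lyz2cre cells. The tables of the 2 conditions were normalized separately, so heights are compared within a condition.

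The remaining gene of the stretch past 2-fold in both conditions was Nid1, which encodes nidogen, a basement membrane glycoprotein that links laminin to collagen. It shares 225 bases at 99.6% identity with the pseudogene Gm2399. Nid1 had 1581, 1354 and 1422 normalized counts in untreated Klf6fl/fl:Lyz2cre libraries, against 173, 84.7 and 143 in untreated Lyz2cre libraries. With TNF it had 69.1, 79.1 and 69.0 in Klf6fl/fl:Lyz2cre libraries, against 12.9, 8.24 and 20.6 in Lyz2cre libraries. The genotypes were well apart in both conditions, at 11.2-fold higher without TNF (log2 3.49, SE 0.166; limma, adjusted p = 3.0e-12) and 5.21-fold higher with TNF (log2 2.38, SE 0.314; limma, adjusted p = 7.1e-06). Gli3, a transcription factor of the Hedgehog pathway, had 149, 135 and 109.6 in untreated Klf6fl/fl:Lyz2cre libraries, against 15.3, 15.7 and 21.9 in untreated Lyz2cre libraries. It was 7.12-fold higher in Klf6fl/fl:Lyz2cre cells (log2 2.83, SE 0.229; limma, adjusted p = 5.2e-09). With TNF Gli3 had 11.2, 14.5 and 23.3 in Klf6fl/fl:Lyz2cre libraries, against 7.96, 0 and 1.15 in Lyz2cre libraries, too low to be tested.

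Markers of stromal cells moved with these genes. All 18 stromal markers tested without TNF were higher in Klf6fl/fl:Lyz2cre cells, and the 20 on the list took 0.407 to 0.433% of normalized counts in Klf6fl/fl:Lyz2cre libraries against 0.0208 to 0.0256% in Lyz2cre libraries. With TNF 14 of the 16 tested were higher and none was lower, at 0.0277 to 0.0327% in Klf6fl/fl:Lyz2cre libraries against 0.00477 to 0.00716% in Lyz2cre libraries. None of the 20 was at 0 in all Lyz2cre libraries of a condition. The part of stromal cells in the Nid1 and Gli3 values was not tested.

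On the proximal side of Klf6 lies the aldo-keto reductase cluster, whose enzymes reduce carbonyl groups of steroids, prostaglandins and other compounds. Of the 10 listed genes of this family 6 belong to the set and 3 were tested, and 2 of the 3 were lower in both conditions, beside 13.4% of all genes tested in both. Scaled to totals, 2 of 3 were lower without TNF, and with TNF 1 of 3 was lower and 1 of 3 higher. Akr1c14, Akr1c18 and Akr1c21 were too low to be tested. Without TNF Akr1c14 and Akr1c18 were higher in every Klf6fl/fl:Lyz2cre library, with means of 11.3 and 18.0 normalized counts against 0 and 7.81 in Lyz2cre libraries. Akr1c21 averaged 0 against 1.46 with overlap, and with TNF the genotypes overlapped in each of these genes. Akr1e1 had 193, 182 and 166 normalized counts in untreated Klf6fl/fl:Lyz2cre libraries, against 355, 416 and 398 in untreated Lyz2cre libraries. TNF-treated Klf6fl/fl:Lyz2cre libraries had 242, 214 and 219, against 466, 466 and 402 in TNF-treated Lyz2cre libraries. All Klf6fl/fl:Lyz2cre libraries were lower, by 2.15-fold without TNF (log2 -1.11, SE 0.0995; limma, adjusted p = 2.2e-08) and by 1.97-fold with TNF (log2 -0.98, SE 0.0988; limma, adjusted p = 3.1e-07).

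Akr1c12 had 40.0, 29.9 and 26.8 normalized counts in untreated Klf6fl/fl:Lyz2cre libraries, against 74.4, 55.7 and 59.1 in untreated Lyz2cre libraries, and was 1.94-fold lower (log2 -0.96; limma, adjusted p = 0.0022). In the TNF table the values were 25.2, 11.8 and 15.6 in Klf6fl/fl:Lyz2cre libraries, against 19.9, 38.1 and 50.4 in Lyz2cre libraries. The TNF values overlapped, and the call there (log2 -0.97; limma, adjusted p = 0.039) was lost with no filter on low values, with totals as the scaling, with a replicate block and without the second or the third TNF library of Klf6fl/fl:Lyz2cre (adjusted p 0.052 to 0.15). Without the first TNF library of Klf6fl/fl:Lyz2cre, or the second or the third of Lyz2cre, Akr1c12 fell below the filter and was not tested. Akr1c13, 96.1% identical to Akr1c12 over 666 bases, averaged 397 ± 68.6 in untreated Klf6fl/fl:Lyz2cre cells and 404 ± 12.3 in untreated Lyz2cre cells (SD, n = 3 each), while TNF-treated Klf6fl/fl:Lyz2cre libraries had 438, 463 and 336, against 359, 334 and 360.0 in TNF-treated Lyz2cre libraries. Its genotypes overlapped and it did not pass the test (limma, adjusted p = 0.78 and 0.0999), but it was past the threshold as higher with TNF by edgeR, with totals as the scaling and without the third TNF library of Klf6fl/fl:Lyz2cre. Reads of such close relatives can be split between them, so their single levels are uncertain.

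At least 1.5-fold in the same direction in both conditions, 8 of 31 genes differed, beside 7.80% of all genes tested in both. Among them, Gm18562 in both conditions and Nid1 with TNF passed the filter only through the Klf6fl/fl:Lyz2cre libraries. This count too is therefore a description only. Of the 8, the one not yet described is Ggps1. It makes geranylgeranyl diphosphate, the isoprenoid that anchors Rab and other small GTPases in membranes. Ggps1 had 303, 298 and 358 normalized counts in untreated Klf6fl/fl:Lyz2cre libraries, against 535, 557 and 555 in untreated Lyz2cre libraries. Klf6fl/fl:Lyz2cre libraries with TNF had 297, 246 and 279, against 489, 546 and 476 in Lyz2cre libraries with TNF. The genotypes did not overlap, and Ggps1 was 1.72-fold lower without TNF and 1.84-fold lower with TNF (log2 -0.78 and -0.88; limma, adjusted p = 1.9e-07 and 8.6e-07). It shares 257 identical annotated bases with its neighbour Arid4b, and a processed pseudogene on chromosome 14 is 97.2% identical to it over 903 bases.

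Lyst, the lysosomal trafficking regulator that is mutated in beige mice, was under the deposited scaling the only gene besides Gm18562, Gpr137b and Nid1 that was higher in both conditions, whereas 6 were when scaled to totals. It averaged 4178 ± 183 normalized counts in untreated Klf6fl/fl:Lyz2cre cells and 3278 ± 134 in untreated Lyz2cre cells, and with TNF 2039.6 ± 194 in Klf6fl/fl:Lyz2cre cells and 1646 ± 63.6 in Lyz2cre cells (SD, n = 3 each). The difference was 1.27-fold without TNF and 1.24-fold with TNF (limma, adjusted p = 1.2e-06 and 7.0e-04).

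The genotype effect could also differ between the conditions. The difference between the 2 genotype effects passed the test in 20 of 31 genes, beside 52.2% of all genes tested, and scaled to totals in 16 of 31, beside 58.4%. It was negative in 14 and positive in 6, beside 25.7% and 26.5% over all genes tested. It exceeded 2-fold in 6 of 31, beside 14.9%. Fam208b, Gtpbp4, Lgals8 and Net1, 4 of 31 beside 13.4% of all genes tested, were higher in Klf6fl/fl:Lyz2cre cells without TNF and lower with TNF, although Net1 was at -0.01 with TNF when scaled to totals.

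Lgals8 encodes galectin-8, a sugar-binding protein that marks damaged vesicles. It had 2904, 3067 and 2947 normalized counts in untreated Klf6fl/fl:Lyz2cre libraries, against 2412, 2351 and 2507 in untreated Lyz2cre libraries. With TNF it had 1829, 1995 and 1961 in Klf6fl/fl:Lyz2cre libraries, against 5102, 4720.2 and 5023 in Lyz2cre libraries. The genotypes stood apart in opposite directions, 1.23-fold higher without TNF and 2.57-fold lower with TNF (limma, adjusted p = 6.5e-06 and 8.7e-13), and the effects differed by -1.65 on the log2 scale (SE 0.0639; limma, adjusted p = 3.0e-14).

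Fam208b, a gene also called Tasor2, had 669, 589 and 620.3 normalized counts in untreated Klf6fl/fl:Lyz2cre libraries, against 493, 496 and 545 in untreated Lyz2cre libraries. TNF-treated Klf6fl/fl:Lyz2cre libraries had 616, 552 and 563, against 1474, 1524 and 1489 in TNF-treated Lyz2cre libraries. It was 1.22-fold higher without TNF and 2.59-fold lower with TNF (limma, adjusted p = 0.0019 and 1.5e-11). Fam208b shares 634 identical annotated bases with its neighbour Gdi2, which lies on the opposite strand, so the counts of both are uncertain where strand was not used.

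Net1, a guanine nucleotide exchange factor, had 203, 194 and 216 normalized counts in untreated Klf6fl/fl:Lyz2cre libraries, against 77.7, 93.2 and 68.9 in untreated Lyz2cre libraries. It was 2.55-fold higher (log2 1.35, SE 0.143; limma, adjusted p = 1.9e-07). In the TNF table the values were 289.5, 222 and 249.8 in Klf6fl/fl:Lyz2cre libraries, against 307, 337 and 313 in Lyz2cre libraries. The lower value with TNF (log2 -0.34; limma, adjusted p = 0.016) lost its call with totals as the scaling (log2 -0.01) and without the second TNF library of Klf6fl/fl:Lyz2cre (adjusted p = 0.0896). A processed pseudogene elsewhere on chromosome 13 is 97.4% identical to Net1 over 1548 bases.

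Asb13, the substrate adaptor of a ubiquitin ligase, was lower in both conditions but more so with TNF. It averaged 312 ± 13.6 normalized counts in untreated Klf6fl/fl:Lyz2cre cells and 401 ± 23.8 in untreated Lyz2cre cells, and with TNF 212 ± 21.7 in Klf6fl/fl:Lyz2cre cells and 779 ± 141 in Lyz2cre cells (SD, n = 3 each). The difference was 1.28-fold without TNF and 3.62-fold with TNF (limma, adjusted p = 0.0012 and 1.4e-09), and no library crossed into the other genotype's range.

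Psma2, a subunit of the proteasome core with a pseudogene 95.1% identical over 546 bases, had 1660.5, 1616 and 1694 normalized counts in untreated Klf6fl/fl:Lyz2cre libraries, against 1631, 1686 and 1635 in untreated Lyz2cre libraries. Klf6fl/fl:Lyz2cre libraries with TNF had 1775, 1705 and 1590.3, against 2804, 2596 and 2706 in Lyz2cre libraries with TNF. The untreated values overlapped (log2 0.00, SE 0.0438; limma, adjusted p = 0.93; 0.14 and past the threshold when scaled to totals), and with TNF Psma2 was 1.60-fold lower in Klf6fl/fl:Lyz2cre cells (log2 -0.68, SE 0.0538; limma, adjusted p = 1.7e-08).

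Edaradd, the adaptor of the ectodysplasin receptor, showed the largest positive difference between conditions among the genes tested in both. It had 82.5, 98.7 and 88.5 normalized counts in untreated Klf6fl/fl:Lyz2cre libraries, against 101, 86.0 and 91.9 in untreated Lyz2cre libraries, which overlapped (limma, adjusted p = 0.82). With TNF it had 48.6, 38.2 and 62.2 in Klf6fl/fl:Lyz2cre libraries, against 10.9, 12.4 and 18.3 in Lyz2cre libraries. It was 3.41-fold higher with TNF (log2 1.77, SE 0.314; limma, adjusted p = 1.5e-04), and it entered that test through the Klf6fl/fl:Lyz2cre libraries. Gng4, a gamma subunit of heterotrimeric G proteins, had 18.7, 10.9 and 17.5 with TNF in Klf6fl/fl:Lyz2cre libraries, against 82.6, 65.9 and 74.5 in Lyz2cre libraries, and was 4.60-fold lower (log2 -2.20, SE 0.274; limma, adjusted p = 3.8e-06). All 3 Lyz2cre libraries and 2 of the 3 Klf6fl/fl:Lyz2cre libraries held Gng4 at 1 CPM or more with TNF. Nid1 with TNF and Gli3 without TNF also passed the filter through 1 genotype.

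**Figure D3:**
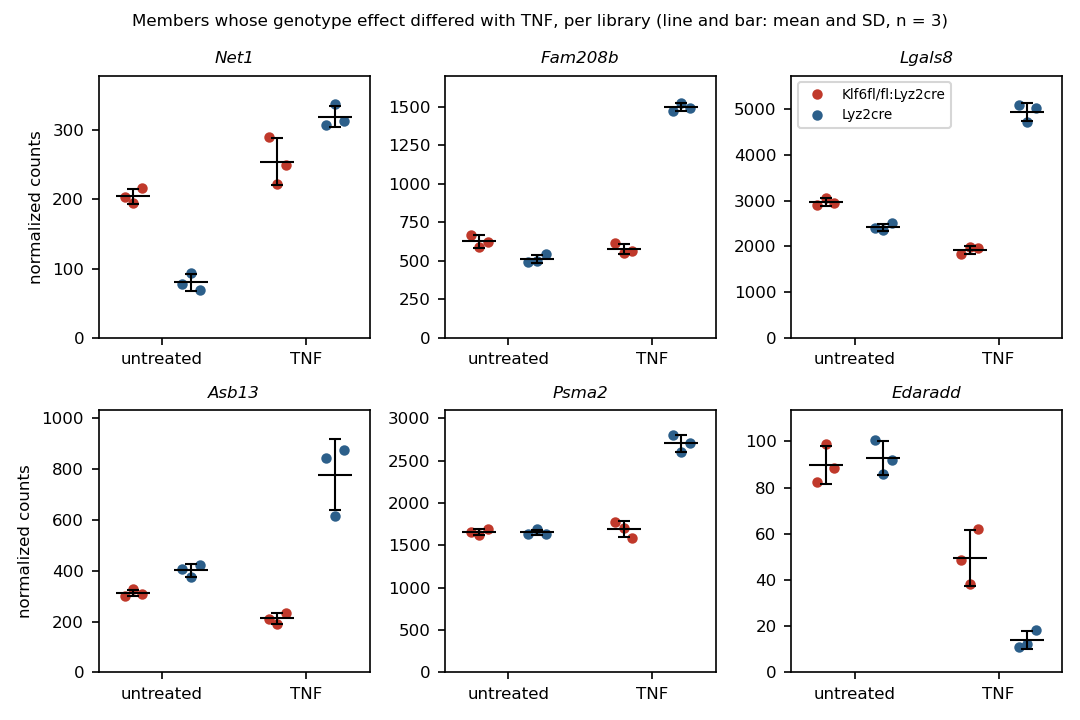
Normalized counts per library of Net1, Fam208b, Lgals8, Asb13, Psma2 and Edaradd in untreated and TNF-treated cells of both genotypes, each panel with its own y axis from 0. Points are libraries and lines with bars are means and SD (n = 3); Lgals8 sits at 1829 to 1995 in Klf6fl/fl:Lyz2cre libraries with TNF against 4720.2 to 5102 in Lyz2cre libraries, whereas without TNF it is slightly higher in Klf6fl/fl:Lyz2cre libraries. The tables of the 2 conditions were normalized separately, so heights are compared within a condition.

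**Figure D4:**
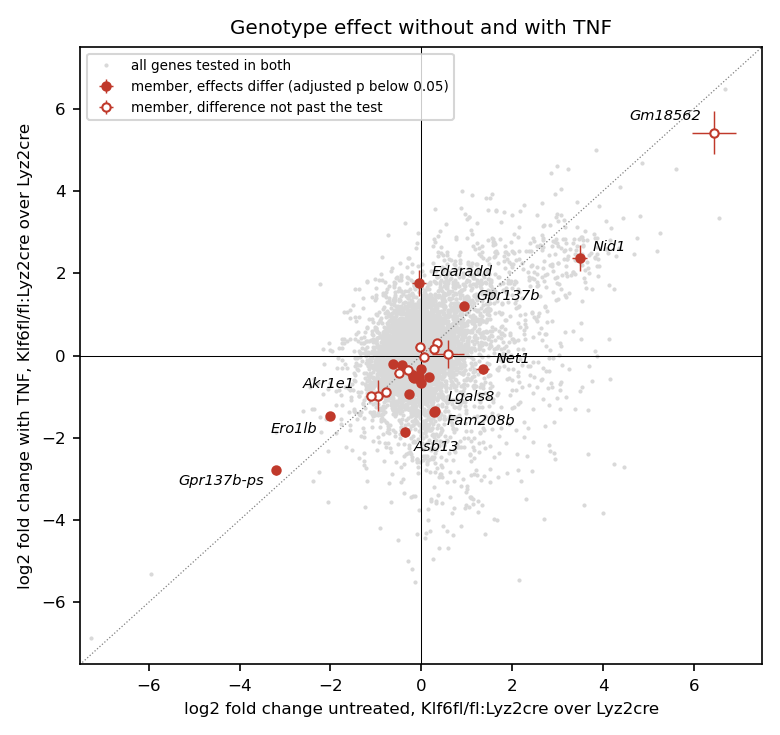
Log2 difference between Klf6fl/fl:Lyz2cre and Lyz2cre cells with TNF (y axis) against the same without TNF (x axis). Grey dots are all genes tested in both conditions and red symbols are the 31 genes around Klf6 with SE bars, filled for the 20 whose 2 effects differed; Gpr137b-ps, Ero1lb, Gpr137b, Gm18562 and Nid1 lie in the 2 quadrants of equal sign, and Lgals8, Fam208b and Net1 in the lower right quadrant.

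Counts by role are to be read beside all genes tested, of which 26.5% were higher and 30.8% lower with TNF and 27.6% higher and 29.3% lower without TNF, and beside the rest of chromosome 13, where 213 of 371 were lower with TNF and 180 of 413 without TNF. The genes of the ribosome and of protein turnover were 5 of 6 lower with TNF, beside 30.8% of all genes tested, and 1 of 6 higher and 1 of 6 lower without TNF. Gtpbp4, a nucleolar GTPase of large ribosomal subunit assembly, averaged 1079.5 ± 26.2 normalized counts in TNF-treated Klf6fl/fl:Lyz2cre cells and 1565 ± 88.4 in TNF-treated Lyz2cre cells (SD, n = 3 each; limma, adjusted p = 7.3e-07). Without TNF it averaged 1007 ± 36.5 in Klf6fl/fl:Lyz2cre cells and 895 ± 38.3 in Lyz2cre cells (limma, adjusted p = 0.014), a call that was lost without the first untreated Klf6fl/fl:Lyz2cre library or the third untreated Lyz2cre library (adjusted p = 0.068 and 0.0745). Heatr1, needed for ribosomal RNA synthesis, averaged 845 ± 68.6 in TNF-treated Klf6fl/fl:Lyz2cre cells and 1256 ± 74.8 in TNF-treated Lyz2cre cells (SD, n = 3 each; limma, adjusted p = 2.8e-06). Scaled to totals, this list had 4 lower and 1 higher with TNF, and 3 higher and 1 lower without TNF.

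In the list headed chromatin and transcription 5 of 5 tested were lower with TNF, beside 30.8% of all genes tested. Without TNF 2 of 6 were higher and 3 of 6 lower. The list is drawn loosely and also holds Wdr37 and Larp4b, so it is not one of chromatin and transcription genes alone. Wdr37, a WD-repeat protein, averaged 814 ± 36.6 normalized counts in TNF-treated Klf6fl/fl:Lyz2cre cells and 1565 ± 44.6 in TNF-treated Lyz2cre cells, 1.92-fold lower (SD, n = 3 each; limma, adjusted p = 7.3e-10). Larp4b, an RNA-binding protein, was 1.44-fold lower with TNF and 1.13-fold lower without TNF (limma, adjusted p = 1.2e-07 and 0.0031). Scaled to totals, 3 of 5 were lower with TNF, and without TNF 3 of 6 were higher and none lower, so the untreated calls of Wdr37 and Larp4b as lower did not hold there (limma, adjusted p = 0.051 and 0.46).

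Genes of membrane traffic and the cytoskeleton were 5 of 6 lower and 1 of 6 higher with TNF, beside 30.8% and 26.5% of all genes tested, and 3 of 6 higher and 2 of 6 lower without TNF, beside 27.6% and 29.3%. Dip2c averaged 314 ± 23.6 normalized counts in TNF-treated Klf6fl/fl:Lyz2cre cells and 461 ± 22.3 in TNF-treated Lyz2cre cells, 1.47-fold lower (SD, n = 3 each; limma, adjusted p = 5.6e-05), with an untreated difference that missed the threshold (adjusted p = 0.056). Scaled to totals, this list had 2 of 6 lower and 1 of 6 higher with TNF and was as before without TNF. In the list of metabolism and signalling 3 of 7 were higher and 2 of 7 lower with TNF, beside 26.5% and 30.8% of all genes tested, and 3 of 6 higher and 2 of 6 lower without TNF. Among the 3 higher with TNF, Edaradd and Nid1 passed the filter only through the Klf6fl/fl:Lyz2cre libraries. Scaled to totals, 4 of 7 were higher with TNF and the other counts did not change. Mtr, the cobalamin-dependent methionine synthase, averaged 907 ± 51.7 in untreated Klf6fl/fl:Lyz2cre cells and 1389 ± 69.6 in untreated Lyz2cre cells, 1.53-fold lower (SD, n = 3 each; limma, adjusted p = 2.9e-08). With TNF Mtr averaged 398 ± 35.9 in Klf6fl/fl:Lyz2cre cells and 457 ± 31.1 in Lyz2cre cells, and the libraries overlapped (log2 -0.20, or 0.13 when scaled to totals; limma, adjusted p = 0.07).

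The 8 tested genes not yet described, given here to account for the whole set and not chosen by the rule for named genes, differed by 1.51-fold at most. Gdi2, which recycles Rab GTPases, had log2 differences of -0.43 without TNF and -0.24 with TNF, and Tbce, a tubulin-folding cofactor, had -0.50 and -0.42. Both passed the test in both conditions (limma, adjusted p at most 4.5e-04), as did Arid4b, a subunit of the Sin3 corepressor, at -0.19 and -0.46 (limma, adjusted p = 0.0070 and 2.9e-05). Zmynd11, a reader of histone marks, and Mrpl32, of the mitochondrial ribosome, passed as lower with TNF only, at -0.33 and -0.51, and the predicted gene AW209491 did so at -0.36. The glycosyltransferase gene B3galnt2 passed as higher without TNF, at 0.27. The pseudogene Gm9616 passed in neither condition, and its genotypes overlapped. Scaled to totals, B3galnt2 was higher in both conditions, at 0.40 and 0.49, and Zmynd11 was higher without TNF, at 0.14 (limma, adjusted p = 5.6e-04, 1.8e-04 and 0.0099). Under that scaling no one of these 8 was past the test as lower with TNF, Gdi2 being at 0.09 there, while Gdi2 and Tbce stayed lower without TNF at -0.30 and -0.37.

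Beyond the window, chromosome 13 tended to lower levels in both conditions. The median log2 difference of the genes around Klf6 themselves was -0.05 without TNF and -0.49 with TNF. Genes of chromosome 13 that start beyond position 16000000 had a median log2 difference of -0.17 over 413 genes without TNF and of -0.34 over 371 genes with TNF. The medians of the 18 other autosomes lay between -0.04 and 0.03 without TNF and between -0.05 and 0.08 with TNF. Of these further genes of chromosome 13, 78 were higher and 180 lower without TNF, and 37 were higher and 213 lower with TNF. In 141 of 364 the difference passed in the same direction in both conditions, 14 higher and 127 lower, which is 38.7%, beside 23.7% of genes on other chromosomes. Scaled to totals, the medians of these further genes were -0.04 without TNF and -0.01 with TNF, against 0.13 and 0.32 on the other chromosomes, so the shift relative to them was -0.17 and -0.33. With no filter on low values the relative shift was smaller, at -0.0871 and -0.23.

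Each Klf6fl/fl:Lyz2cre library showed it. Set against the mean of the Lyz2cre libraries of its condition and against all other chromosomes, the median of these further genes was -0.17, -0.19 and -0.13 in the untreated Klf6fl/fl:Lyz2cre libraries. The untreated Lyz2cre libraries, each set against the other 2 in the same way, gave 0.00, -0.01 and 0.00. With TNF the values were -0.34 in all 3 Klf6fl/fl:Lyz2cre libraries and -0.01, 0.02 and -0.02 in the Lyz2cre libraries. The genes around Klf6 gave -0.06, -0.01 and -0.03 in untreated Klf6fl/fl:Lyz2cre libraries and -0.42, -0.54 and -0.42 in TNF-treated Klf6fl/fl:Lyz2cre libraries. Besides stromal and macrophage markers, 7 monocyte markers took 0.0997 to 0.111% of normalized counts in untreated Klf6fl/fl:Lyz2cre libraries against 0.0628 to 0.0674% in untreated Lyz2cre libraries (6 higher, 1 lower), and with TNF 0.0309 to 0.0357% in Klf6fl/fl:Lyz2cre libraries against 0.0164 to 0.0184% in Lyz2cre libraries (2 higher, 2 lower). The 7 endothelial markers took 0.00921 to 0.0103% in untreated Klf6fl/fl:Lyz2cre libraries against 0.00396 to 0.00445% in untreated Lyz2cre libraries (4 of 4 tested higher), and with TNF 0.00715 to 0.00766% in Klf6fl/fl:Lyz2cre libraries against 0.0101 to 0.0120% in Lyz2cre libraries (1 of 3 tested higher, 2 lower). The 7 neutrophil markers took 0.0419 to 0.0446% in untreated Klf6fl/fl:Lyz2cre libraries against 0.0508 to 0.0566% in untreated Lyz2cre libraries (2 higher, 5 lower). With TNF the neutrophil markers took 0.000922 to 0.00116% in Klf6fl/fl:Lyz2cre libraries against 0.00123 to 0.00136% in Lyz2cre libraries (0 of 4 tested higher, 2 lower). The part of cell composition in the shift of chromosome 13 was not tested.

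The genes around Klf6 were also read against the spread of the rest of chromosome 13. By definition, 5% of that rest lies below its 5th percentile and 5% above its 95th. Of the 32 genes around Klf6 tested without TNF, 3 were below that 5th percentile of -0.98 and 3 above that 95th percentile of 2.81. Of 32 tested with TNF, 4 were below -1.47 and 4 above 0.68. No test was made of these counts, since genes of 1 chromosome are not independent.

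**Figure D5:**
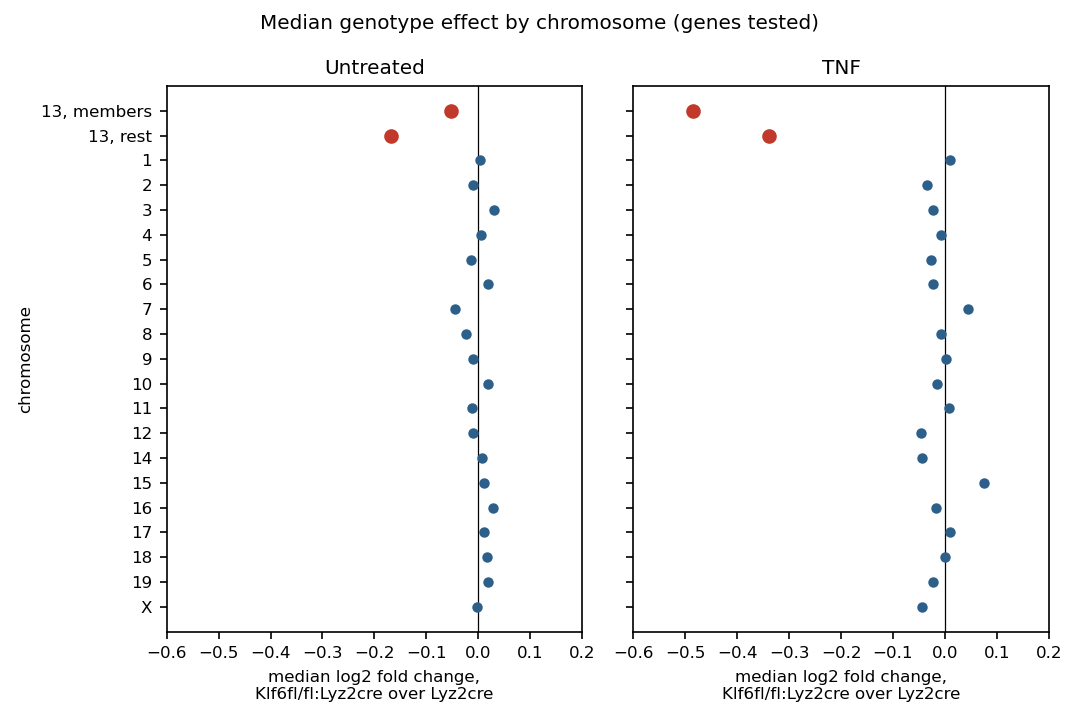
Median log2 difference between Klf6fl/fl:Lyz2cre and Lyz2cre cells over the genes tested on each chromosome, untreated left and TNF right, with the genes around Klf6 ("members") and the rest of chromosome 13 in red at the top. Each point is a median over genes with no error bar; the rest of chromosome 13 lies at -0.17 and -0.34, and the 18 other autosomes lie between -0.05 and 0.08.

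The 22 genes tested in neither condition comprised 8 protein-coding genes and 14 pseudogenes, and the highest value of any of them in any library was 23.3 normalized counts. Of these, 4 had reads in Klf6fl/fl:Lyz2cre cells and none in the 6 Lyz2cre libraries, namely Gm16505, Calm4, Tubal3 and Ucn3, at no more than 4.87 normalized counts in a library. The share of all genes with this pattern was not counted. Over all genes, untreated Klf6fl/fl:Lyz2cre libraries had reads in 19880 to 20169 genes, against 18332 to 18846 in untreated Lyz2cre libraries. With TNF these ranges were 18231 to 18341 and 17143 to 17573. Without a filter on low values, Akr1c14, Chrm3 and Tubal3 passed the test as higher in untreated Klf6fl/fl:Lyz2cre cells (limma, adjusted p = 3.0e-05, 0.0060 and 0.034) and Gm18856 as higher with TNF (limma, adjusted p = 0.015). Akr1c14, an aldo-keto reductase, had 11.7, 14.95 and 7.31 normalized counts in untreated Klf6fl/fl:Lyz2cre libraries and 0 in all 3 untreated Lyz2cre libraries. These rest on few reads, and these 4 genes are named because that fit called them. Across the whole set, 35 of the 55 genes have another annotated gene with at least 95% identity over at least 200 bases, and 21 of those 35 are among the genes tested in both conditions. Some of these matches are overlapping neighbours at the same position and not copies, such as Arid4b and Ggps1.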

How the data were processed

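Total RNA libraries (TruSeq Stranded Total RNA with Ribo-Zero Gold, from 150 ng, per the labels' protocols) of macrophages were available as 2 deposited tables, 1 per condition. The deposited values are a normalized read signal: per the file values, the authors divided whole read counts by 1 size factor per library, so whole reads could be recovered for 100% of values (tolerance 0.001 read). The submitters' processing notes name Cufflinks and the builds GRCm39 and mm10; the sources used here name no aligner, counter, annotation or strand setting. Normalization was done separately in each table, and genes were placed by GENCODE vM21 (GRCm38).

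Genes that reached 1 CPM in 3 or more libraries were tested with limma 3.58.1 (trend) on log2(value + 1), over all genes of a table, with Benjamini-Hochberg adjustment over all genes tested and a threshold of 0.05. Fold changes on that scale understate low genes. The difference of the genotype effects was tested over all 4 groups on the joined tables. edgeR 4.0.16 on recovered reads gave 22 and 28 calls of 32 among these genes, beside 7219 of 12715 and 6707 of 11717 over all genes. The other alternatives were DESeq2 1.42.0, other pseudocounts, filters and scalings, a replicate block and leaving out libraries. The main limma fits, for each condition and for the difference of the genotype effects, were tested on simulated counts. The alternatives were not. Near-identical transcripts of other genes were found with blastn 2.17.0 among GENCODE vM21 transcripts (at least 95% identity over at least 200 bases). Genes that overlap at the same position were not screened out. The printed sequences come from the same transcripts.

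The genes and lists were chosen with earlier results of these data known. Named genes are those past the test at least 1.5-fold the same way in both conditions, the 4 nearest to Klf6 on each side, the 6 highest and 6 lowest in each condition, and up to 3 per role. Same-numbered libraries showed no clear common deviation, though a weak one without TNF cannot be told from none, and no pairing was used.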

Additional observations from a re-analysis of the deposited data

Results flagged for a closer look

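For 16 of the named genes the genotype effect differed between the conditions in a test of that difference over all 4 groups (limma, Benjamini-Hochberg adjusted over all genes tested). The values here are effects with TNF minus effects without TNF on the log2 scale. The most negative were Net1 at -1.69, Fam208b at -1.66, Lgals8 at -1.65 and Asb13 at -1.50, with adjusted p-values of 1.4e-07, 1.0e-11, 3.0e-14 and 1.4e-07 by limma. Net1, Fam208b and Lgals8 were higher in Klf6fl/fl:Lyz2cre cells without TNF and lower with TNF. Nid1 was at -1.11 (limma, adjusted p = 0.013), and its excess in Klf6fl/fl:Lyz2cre cells was smaller with TNF.

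Smaller negative differences were those of Gtpbp4 at -0.70, Psma2 at -0.68, Wdr37 at -0.67, Heatr1 at -0.52, Dip2c at -0.41 and Larp4b at -0.36. Positive differences were those of Gpr137b at 0.25, Gpr137b-ps at 0.41, Mtr at 0.41, Ero1lb at 0.54 and Edaradd at 1.82. For Gpr137b-ps, Ero1lb and Mtr a positive value means that the deficit in Klf6fl/fl:Lyz2cre cells was smaller with TNF. When libraries were scaled to totals, 14 of the 16 remained past the threshold with the same sign, while Dip2c at -0.21 and Larp4b at -0.16 were no longer past it (limma, adjusted p = 0.093 and 0.0521). The tables of the conditions were normalized separately by the authors, which touches every one of these differences.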

How the results depend on the processing

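The counts are given in the order without TNF, with TNF, same direction in both, and effect differing between conditions. The reported counts were 22 and 27 of 32 and 15 and 20 of 31, beside 56.9, 57.3, 23.7 and 52.2% of all genes tested. Restricting to genes within 3 Mb of Klf6 gave 7, 7, 5 and 5 of 10, beside the same shares. Requiring at least 2-fold gave 7 and 10 of 32 and 4 and 6 of 31, beside 13.8, 15.1, 4.00 and 14.9%. A choice made after seeing the data was to leave out genes with at least 95% identity over at least 200 bases to another annotated gene. It gave 7 and 10 of 11 and 4 and 7 of 10, beside the shares of the reported counts. The genes left out include overlapping neighbours that share bases at the same position, such as Arid4b and Ggps1, and not only copies. The cause of these lower counts is the smaller set or the stricter rule itself. Leaving out 1 library at a time gave 20 to 22, 22 to 28, 12 to 16 and 17 to 20. The genes tested then numbered 30 to 32, 28 to 32, 27 to 31 and 27 to 31. The shares over all genes tested were then 50.5 to 54.1, 50.8 to 56.5, 20.8 to 23.4 and 48.6 to 52.4%. edgeR gave 22 and 28 of 32 and 15 and 20 of 31 (56.8, 57.2, 23.1 and 52.8% of all genes). DESeq2 gave 22 and 26 of 32 and 15 and 19 of 31 (52.6, 53.5, 21.2 and 51.4% of all genes). No filter gave 26, 28, 16 and 21 of 55 (34.3, 33.1, 14.4 and 32.4% of all genes). Totals as the scaling gave 22 of 32, 22 of 32, 11 of 31 and 16 of 31 (59.2, 74.7, 31.7 and 58.4% of all genes). There the TNF count and the last count are below the share of all genes. The replicate block gave 22 and 26 of 32 and 14 and 20 of 31 (57.3, 55.2, 23.2 and 50.4% of all genes). The correlation of same-numbered libraries was 0.152, -0.0378 and 0.158 without TNF and -0.0209, -0.0123 and -0.0295 with TNF. Different-numbered libraries without TNF ranged from -0.23 to 0.114. The numbers thus showed no clear pairing with TNF, and a weak pairing without TNF cannot be told from none.

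Of 609 alternative values for 48 effects of named genes, 580 kept direction and side of the threshold, 11 lost the call, 7 gained it and 11 changed sign, all 11 in 6 effects that had not passed the test. The 609 leave out fits in which the gene fell below the filter once 1 library was left out. This befell Gm18562 in both conditions, and Edaradd and Nid1 with TNF, whenever a Klf6fl/fl:Lyz2cre library was left out. Akr1c12 with TNF was also lost in some of these fits, so the tally does not cover these cases. Scaled to totals, the untreated log2 effects of Akr1c13, Edaradd and Heatr1 became 0.0959, 0.0848 and 0.0762, and the TNF effects of Pitrm1 and Mtr became 0.28 and 0.13. Leaving out 1 library gave untreated log2 effects of -0.15 to 0.10 for Akr1c13, -0.12 to 0.0127 for Edaradd and -0.0112 to 0.0226 for Psma2. Scaling to totals also moved the median of genes on other chromosomes, to 0.13 without TNF and 0.32 with TNF. The cause of the sign changes on leaving out 1 library was not tested. The median of chromosome 13 beyond the window, relative to other chromosomes, ranged over 13 alternatives from -0.18 to -0.0871 without TNF and from -0.34 to -0.23 with TNF, the smallest shifts being those with no filter.

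The libraries, at 16.9 to 23.4 M reads, limit the 22 genes below the filter in both conditions; with no filter, 3 of them were called without TNF and 1 with TNF.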
